A study of Glycine max with 102 samples.

Results

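P1 (Glyma.09G278000) is the gene assigned to a classical soybean locus for pubescence, the coat of hairs on leaves, stems and pods. It is 1 of the 56044 gene IDs measured, and it was selected on its own FPKM values, which differed widely between collections and between libraries. The genes set beside it as its closest correlates were chosen by their correlation with P1 within a collection. Its own levels and its closest correlates are therefore given as a description, without a test. Plant hairs, or trichomes, are outgrowths of the epidermis that are laid down while a leaf is young. In soybean a dominant allele at P1 gives hairless plants, other loci set how dense the hairs are, and flavonoid genes set their colour.

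Leaf RNA of 102 soybean accessions was sequenced at the V2 stage, at 18 days of age, with 1 library per accession. The 41 soyNAM parents, founders of a nested association mapping population, comprised 8 PI lines (plant introductions), 15 LG lines (diverse breeding ancestry) and 18 elite lines. The other 61 libraries came from milestone cultivars. No treatment or transgene is named for either collection, and the labels give neither a batch nor a time of day, so a batch or harvest time that coincides with a collection cannot be told apart from the collection. The classes of the soyNAM parents follow the public family numbers of that population, which the labels do not state. The library named Parent carries no family number. It was taken as the hub parent of that population and counted as elite, which the labels do not state either. A numbered milestone library is not tied to a named cultivar.

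Levels are FPKM, fragments per kilobase of transcript and per unit of sequenced fragments, as the authors deposited them, and summed FPKM per library ran from 459817 to 864712. The read depth behind them is unknown, so no counting error is given. The 2 leaf marker genes, for the small subunit of Rubisco, had a median sum of 17751 FPKM among soyNAM parents and of 22538 FPKM among milestone cultivars, while nodule and seed markers summed to at most 2.89 FPKM among soyNAM parents and 2.31 FPKM among milestone cultivars. Of the 2 leaf markers, Glyma.19G046800 was listed above 0 in only 13 soyNAM and 29 milestone libraries, so their sum came mainly from Glyma.13G046200. Both leaf markers were listed at 0 in milestone library 47, where P1 stood at 211.5 FPKM. Only the 0 of Glyma.13G046200 was unusual, since that gene was above 0 in 60 milestone libraries. An exact 0 in FPKM can be a failed estimate. Without that library the milestone median of P1 was 440.5 FPKM, the log2 difference of P1 between the collections was -5.48, and 45 of its 50 closest genes in milestone cultivars remained. Among the soyNAM parents 5 libraries, Parent, NAM10, NAM31, NAM11 and NAM06, had the smallest shares of summed FPKM in their 50 most abundant genes, 12.6% to 15.03%, and are said here to stand apart. NAM48 came next at 16.7%, so the limit of this set, taken over from earlier results of these data, is not sharp. Results that rest on the 5 are given with and without them. Each accession had 1 library, so the spread behind every p-value is between accessions. For limma p-values between the collections it is the spread within a collection, differences between soyNAM classes included. For those between soyNAM classes it is pooled over all classes, milestone cultivars included. Fewer cells of a type cannot be told apart from less RNA per cell.

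P1 was an abundant leaf transcript in milestone cultivars and a low to moderate one in soyNAM parents. In the 41 soyNAM parents it ran from 0.0713 to 105.5 FPKM around a median of 10.04, and in the 61 milestone cultivars from 39.05 to 1215 FPKM around a median of 429. Its mean was 13.7 ± 17.6 FPKM over the soyNAM parents (SD, n = 41) and 486 ± 250 FPKM over the milestone cultivars (SD, n = 61). Ranked among all genes of its own library, P1 was at a median place of 9470 in soyNAM parents and of 188 in milestone cultivars. The fitted difference on the log2(FPKM + 1) scale, soyNAM minus milestone, was -5.46 (SE 0.22), and 7 of the 30101 genes in the fit, P1 included, were lower in soyNAM parents by at least that much. The collections overlapped at their edges: 2 soyNAM libraries lay above the lowest milestone library, and 2 milestone libraries lay below the highest soyNAM library.

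Within soyNAM the order of the medians was PI, LG and elite from high to low. P1 was between 8.04 and 43.96 FPKM in the 8 PI lines, with a median of 16.2. In the 15 LG lines the values ran from 0.420 to 105.5 FPKM with a median of 7.53. In the 18 elite lines they ran from 0.0713 to 28.2 FPKM with a median of 6.52. LG and elite lines did not differ beyond their spread, at a log2 difference of 0.47 (SE 0.37) against SDs of 1.40 in LG lines and 1.34 in elite lines. PI lines were above elite lines by 1.56 (SE 0.44) on the log2 scale, yet 8 of 18 elite lines reached the lowest PI value. Without the 5 libraries that stand apart the medians of LG and elite lines changed order. LG lines were at a median of 7.86 FPKM (n = 14) and elite lines at one of 10.05 FPKM (n = 14). The log2 difference of LG and elite lines, which compares means, stayed above 0 at 0.16. The LG line at 105.5 FPKM was still among the 14, and its part in this was not tested. The log2 difference of PI and elite lines was then 1.06, and 1.22 when NAM29 and NAM48 were dropped too.

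**Figure D1:**
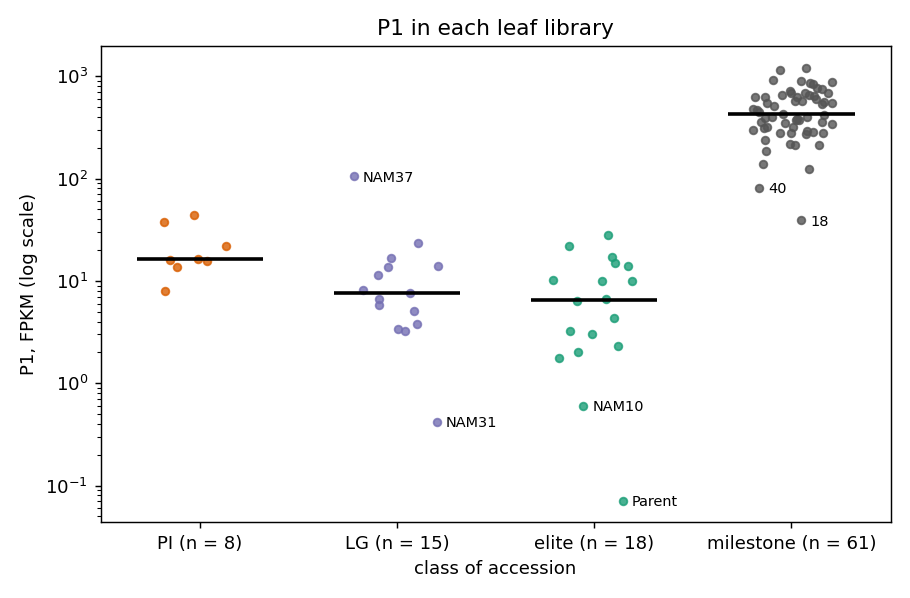
P1 level in FPKM on a log scale for each of the 102 libraries, by class of accession, with 1 point per library and a black bar at the class median. The medians are 16.2 FPKM in PI, 7.53 in LG, 6.52 in elite and 429 in milestone libraries, and LG library NAM37 at 105.5 FPKM lies above milestone libraries 18 and 40.

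A library was called outlying where its log2(FPKM + 1) lay more than 1.5 interquartile ranges outside the quartiles. Among the milestone cultivars 2 libraries were outlying, both low: library 18 at 39.05 FPKM and library 40 at 81.6 FPKM, below a limit of 96.2 FPKM. No milestone library was outlying on the high side, although libraries 54 and 35 reached 1215 and 1148 FPKM. The quartiles of the 61 libraries were 299.8 and 638 FPKM. P1 varied more than most transcripts of its abundance: of 839 genes with a milestone median of at least 100 FPKM, 21 had a larger SD than the 0.89 of P1 on the log2 scale, and the median SD was 0.34.

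The high soyNAM library was NAM37, an LG line, at 105.5 FPKM. It exceeded the next soyNAM library, the PI line NAM50 at 43.96 FPKM, and lay outside the limit of 67.1 FPKM for LG lines. Over the 41 soyNAM libraries as a whole, neither NAM37 nor any other library was outlying, and no soyNAM class had a low outlying library. At the low end, the 5 libraries that stand apart were 5 of the 6 with the least P1 in soyNAM. P1 stood at 0.0713 FPKM in Parent, 0.420 in NAM31, 0.602 in NAM10, 1.76 in NAM11 and 2.29 in NAM06. The other 36 soyNAM libraries had a median of 10.7 FPKM, and the elite line NAM02 at 2.04 FPKM was the only one of them below NAM06.

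LHY2b (Glyma.03G261800), a clock gene for a MYB repressor that peaks around dawn, was low in the same libraries. It was at 0.196 FPKM in Parent, 0.239 in NAM10, 36.4 in NAM06, 40.8 in NAM31 and 49.7 in NAM11, where the soyNAM median was 215 FPKM. The summed leaf markers were also low, at 4163 FPKM in Parent, 5393 in NAM10, 6930 in NAM11, 8180 in NAM31 and 12735 in NAM06, and 8734 FPKM in NAM48, against a soyNAM median of 17751. The part of the clock state, of leaf marker level or of library composition in the low P1 values was not tested. LHY2b was also below its soyNAM median in PI line NAM48, at 46.1 FPKM, and in LG line NAM29, at 53.97 FPKM, though far above Parent and NAM10. P1 stood at 8.04 FPKM in NAM48, the lowest of the PI lines, and at 3.26 FPKM in NAM29. The Spearman correlation of the pair was 0.12 over all 41 soyNAM libraries and -0.29 without the 5. In the 61 milestone cultivars it was -0.34.

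**Figure D2:**
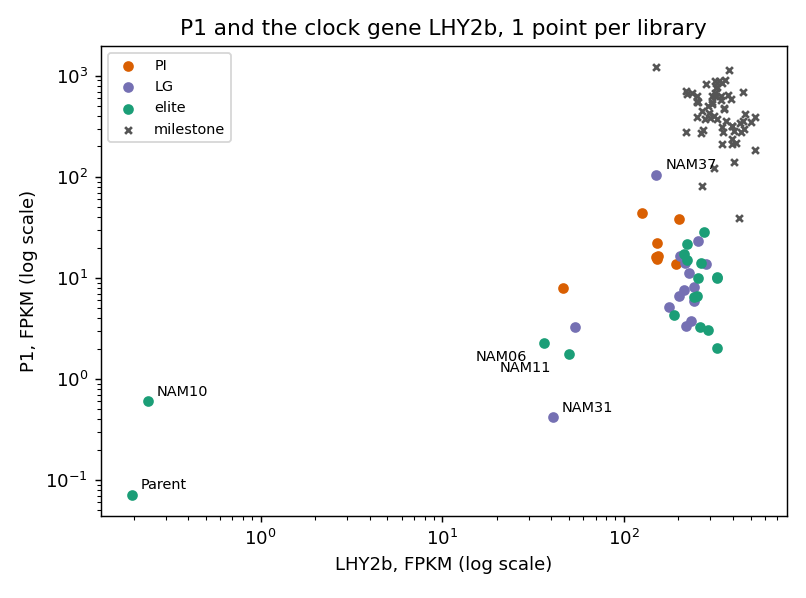
P1 level against the level of the clock gene LHY2b, both in FPKM on log scales, with 1 point per library and circles for soyNAM classes and crosses for milestone cultivars. Parent and NAM10 lie far to the left with the lowest LHY2b values, 0.196 and 0.239 FPKM, and P1 at 0.0713 and 0.602 FPKM.

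Other published pubescence loci were measured in the same leaves. Their names come from published assignments, since the table holds IDs only. Of 5 such genes 4 passed the filter of a mean of 1 FPKM. By limma with Benjamini-Hochberg adjustment over all 30101 genes, 4 of 4 were lower in soyNAM parents than in milestone cultivars. The background of this comparison was high, with 74.8% of all genes called and 37.8% called lower. The median log2 difference of the 4 genes was -0.69, against -0.0016 over all genes.

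Ps (Glyma.12G187200), a locus for sparse pubescence, ran from 0.205 to 24.9 FPKM around a median of 10.97 in soyNAM parents and from 15.9 to 108 FPKM around a median of 28.7 in milestone cultivars. It fell by 1.47 on the log2 scale (SE 0.12, limma adjusted p = 2.8e-20), and the ranges of the collections overlapped. Its lowest values fell in the libraries that were also lowest in P1, at 0.205 FPKM in Parent, 1.08 in NAM10 and 3.47 in NAM31. Without the 5 libraries the log2 difference of Ps was -1.26.

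T (Glyma.06G202300) encodes the flavonoid 3'-hydroxylase that turns pubescence from gray to tawny. Its range was 1.20 to 14.6 FPKM around a median of 3.61 in soyNAM parents, and 2.58 to 26.8 FPKM around 5.98 in milestone cultivars, a log2 difference of -0.97 (SE 0.17, limma adjusted p = 1.9e-07). Pd1 (Glyma.01G240100), a locus for dense pubescence, was barely expressed, at medians of 0.615 FPKM for soyNAM parents and 1.11 FPKM for milestone cultivars, with a log2 difference of -0.42 (SE 0.09, limma adjusted p = 1.1e-05). CPR5 (Glyma.06G145800), needed for normal trichome growth, had the smallest difference, at medians of 5.49 and 6.16 FPKM in soyNAM parents and milestone cultivars (log2 difference -0.14, SE 0.04, limma adjusted p = 3.6e-04). Td (Glyma.03G258700), a locus that modifies tawny colour, did not pass the filter, and its median was 0.144 FPKM for soyNAM parents and 0.305 FPKM for milestone cultivars.

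Within soyNAM 0 of the 4 genes were called between PI and elite lines, where 3.45% of all genes were (2.14% higher and 1.30% lower). Between LG and elite lines 0 of the 4 were called, against 0.0266% of all genes (0.00997% higher and 0.0166% lower). At an unadjusted p under 0.05, limma passed 1 of the 4, Ps, for PI against elite lines and 0 for LG against elite lines, and the adjusted rank-sum test called 0 in both. For Ps the log2 difference was 0.53 (SE 0.25, limma adjusted p = 0.243) in PI against elite lines and 0.07 (SE 0.21) in LG against elite lines. Without the 5 libraries that stand apart these values were 0.13 and -0.24.

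Across milestone libraries the density loci had higher correlations with P1 than the colour loci. In the 61 milestone cultivars the Spearman correlation with P1 was 0.48 for Pd1 and 0.38 for Ps, higher than for 96.7% and 93.2% of the 30013 genes compared. For T it was 0.23, for CPR5 0.10 and for Td 0.06. In the 41 soyNAM parents Ps was at 0.42, but at 0.17 without the 5 libraries that stand apart, and Pd1 was at -0.07. The difference between loci in these correlations was not tested, and all of them come from the same libraries.

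None of the genes beside P1 that passed the filter differed between the collections by as much. Counting 10 gene IDs to each side on chromosome 9, 11 of 20 neighbours passed the filter and are called measured here. The IDs directly below P1, Glyma.09G277900 and Glyma.09G277800, did not pass, with medians under 1 FPKM in both collections. In soyNAM parents 6 of the 11 were higher, 4 were lower and 1 was not called, against 74.8% called over all genes. By direction, 11132 of all 30101 genes were called higher and 11376 lower. Whether the directions among the 11 depart from this background was not tested. The median log2 difference of the 11 was 0.11, and the differences ran from -0.91 to 0.80, where P1 stood at -5.46.

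The nearest measured neighbours on either side of P1 were higher in soyNAM parents. Glyma.09G278100, the next ID above, had a median of 17.4 FPKM among soyNAM parents and 8.05 FPKM among milestone cultivars (log2 difference 0.79, SE 0.12, limma adjusted p = 2.1e-09). Glyma.09G277700, 3 IDs below, was at medians of 11.3 and 10.07 FPKM in soyNAM parents and milestone cultivars (log2 difference 0.11, SE 0.03, limma adjusted p = 3.3e-04). The next measured gene on each side was also higher, by 0.24 (SE 0.05) below and by 0.22 (SE 0.03) above. The largest fall among the neighbours, named after its value was seen, was that of Glyma.09G277500 at medians of 2.71 and 6.09 FPKM in soyNAM parents and milestone cultivars. What these neighbours encode is not given in the table. Between PI and elite lines and between LG and elite lines 0 of the 11 were called by limma or by the rank-sum test, near the shares of 3.45% and 0.0266% over all genes, and 1 passed an unadjusted p under 0.05 in each.

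**Figure D3:**
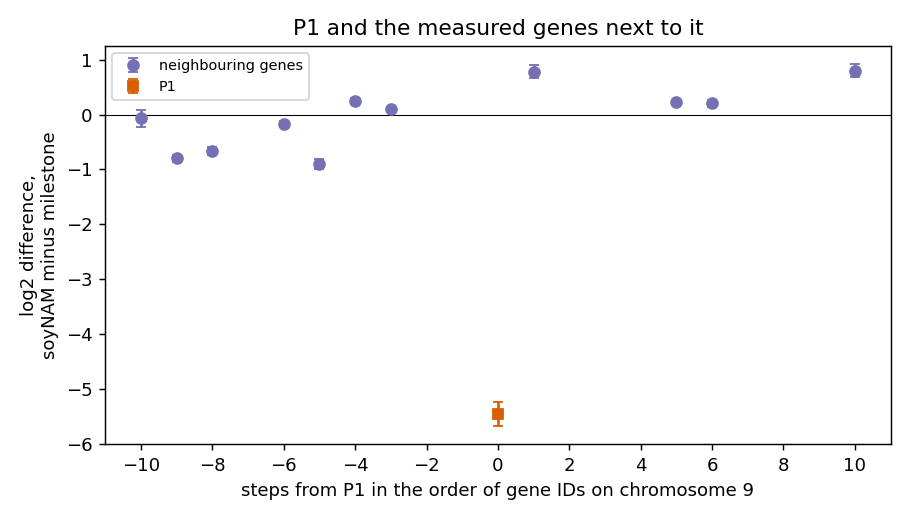
Fitted log2 difference, soyNAM minus milestone, with its standard error as the bar, for P1 (square) and the 11 measured neighbours (circles) by steps from P1 in the order of gene IDs on chromosome 9. The neighbours lie between -0.91 and 0.80 and P1 lies at -5.46.

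Among milestone cultivars a set of transcripts followed P1 closely. Of the 30013 genes averaging 1 FPKM or more there, 96 had a Spearman correlation with P1 of at least 0.8 over the 61 libraries, and 6 reached 0.9. The closest was Glyma.20G142700 at 0.96, followed by Glyma.13G139300 at 0.93. Pearson's r on log2(FPKM + 1) was 0.96 and 0.91 for this pair, and 0.95 and 0.92 without libraries 18 and 40, those farthest from the median of P1. All points share the libraries and their normalization, and the correlation of P1 with summed FPKM was -0.31.

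Glyma.20G142700 followed P1 from one end of its range to the other. It was at 1.51 FPKM in library 18 and 2.54 in library 40, where P1 was lowest, and at 28.9 FPKM in library 35 and 38.3 in library 54, where P1 was highest. These were the lowest and the highest values of the gene in the collection, 1.51 and 38.3 FPKM, around a median of 12.9. In soyNAM parents it was low, from 0.376 to 2.76 FPKM with a median of 0.799, and its correlation with P1 was 0.04.

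The 50 genes with the highest correlation in milestone cultivars, from 0.84 to 0.96, had a median pairwise correlation of 0.82. They were chosen by their correlation with P1 over these same libraries. That they move with each other, and are low where P1 is low, therefore follows at least in part from the choice. The 50 genes lay on 19 chromosomes, 2 of the 50 on chromosome 9, so they are not a run of genes beside P1. Library 18 had the lowest value of the collection in 37 of the 50 genes. Mean log2(FPKM + 1) over the 50 genes was 1.38 in library 18, 1.70 in library 40 and 4.34 in library 35, against a median of 3.21. The ranking of the lowest 4 libraries by this mean was that of P1 itself, libraries 18, 40, 48 and 27.

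Most of this group was close to 0 in soyNAM parents. Over the 50 genes the middle value of the gene medians was 0.168 FPKM for soyNAM parents and 9.27 FPKM for milestone cultivars, and 42 of the 50 did not average 1 FPKM in soyNAM parents. Those 42 passed the filter on low values through the milestone cultivars, so the counts that follow describe the chosen genes and support nothing. Of 49 genes tested, limma called 49 lower and 0 higher in soyNAM parents, where 38.9% of genes at 1 FPKM in milestone cultivars were called lower. Of the 49, 47 had a log2 difference of -1 or lower, against 6.44% of that background, and the median was -2.61, against -0.02. In 21 of the 50 genes every soyNAM library lay below every milestone library, which held for 0.806% of the background. The 8 genes that averaged 1 FPKM in both collections were all called lower, with a median of -1.99. Over all 27563 genes at 1 FPKM in both collections, 35.8% were called lower and the median was 0.01. These 8 were chosen by the same correlation with P1, so they too are a description.

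Above a milestone correlation of 0.2, the median difference between the collections was larger the closer the genes were to P1. Among genes at a mean of 1 FPKM in both collections, the median log2 difference was -1.99 for the 27 genes with a milestone correlation of at least 0.8, -0.80 for the 138 between 0.6 and 0.8, and -0.51 for the 842 between 0.4 and 0.6. It was -0.14 for the 3014 between 0.2 and 0.4. Below that it changed little, at 0.01 for the 8226 genes between 0 and 0.2 and 0.09 for the 529 below -0.4. Genes that move together in the same libraries are not independent, and no test was made of this order. P1 was selected on levels that differed widely between the collections, so the order is a description only.

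Within soyNAM the relation of this group to P1 can be read only for the 8 genes that averaged 1 FPKM there, since near 0 a correlation has little signal to rest on. The correlations of these 8 ran from -0.66 for Glyma.11G161600 to 0.36 for Glyma.15G001400, with 4 above 0 and a median of -0.01. Without the 5 libraries that stand apart they ran from -0.58 to 0.31 around 0.04. Over all 49 genes with any signal the median was -0.06, which was -0.04 without NAM37 and 0.02 without the 5 libraries. NAM37, with the most P1 of any soyNAM library, had a mean log2(FPKM + 1) of 0.58 over the 50 genes, place 26 of 41. The highest means of the group in soyNAM were those of NAM10 at 1.12 and Parent at 0.89, where P1 was at 0.602 and 0.0713 FPKM. Both are among the 5 libraries that stand apart. Since 42 of the 50 genes averaged under 1 FPKM in soyNAM parents, no relation to P1 is read from these means.

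**Figure D4:**
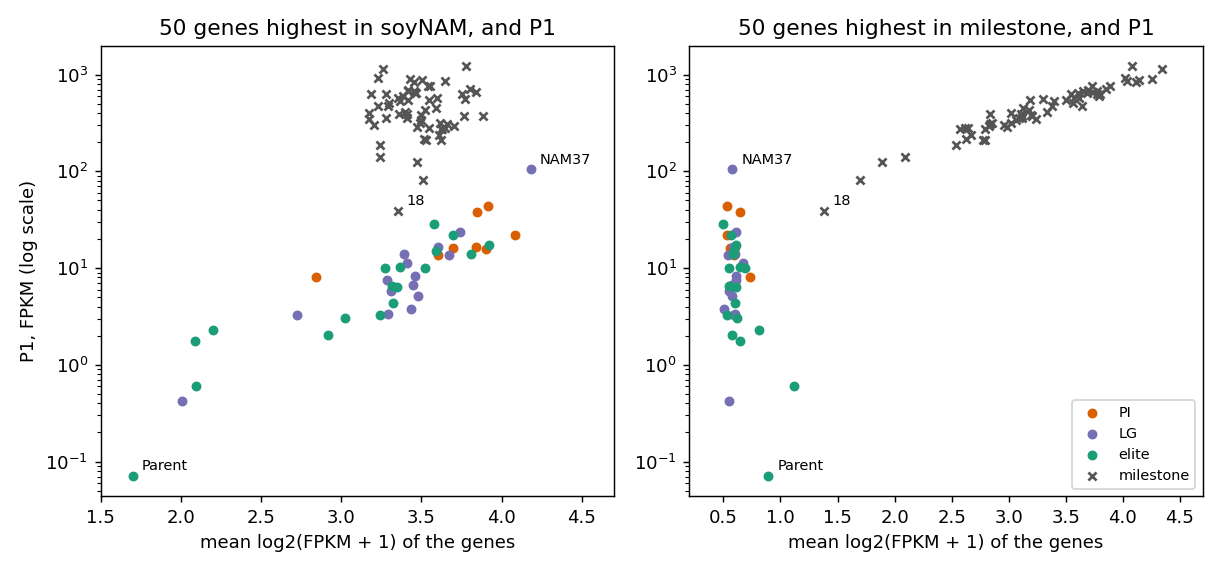
P1 level in FPKM on a log scale against mean log2(FPKM + 1) of the 50 genes most correlated with it in soyNAM parents (left) and in milestone cultivars (right), with 1 point per library. On the right, milestone libraries spread from 1.38 to 4.34 along P1 while soyNAM libraries stay between 0.49 and 1.12; on the left, soyNAM libraries spread from 1.70 to 4.18 while milestone libraries stay between 3.17 and 3.89.

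Another set of genes followed P1 among soyNAM parents, and less closely. Of 29151 genes at a mean of 1 FPKM in soyNAM parents, 2 reached a correlation of 0.8 and 38 one of 0.7. Without the 5 libraries that stand apart 0 of 28472 genes reached 0.8 and 7 reached 0.7. Glyma.17G015400 led with 0.86, and Glyma.04G018400 came next with 0.80. Glyma.17G015400 was at 28.3 FPKM in NAM37 and 16.1 in NAM50, and at 0.267 in Parent, 0.784 in NAM31 and 0.795 in NAM10, around a median of 6.58. Its r on log2(FPKM + 1) was 0.89, and 0.85 without Parent and NAM37, and its correlation was 0.79 without the 5 libraries that stand apart. In the milestone cultivars it was at a median of 14.5 FPKM and a correlation of 0.23, and Glyma.04G018400 at 0.11.

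The 50 highest genes of soyNAM parents shared 0 genes with the 50 of milestone cultivars. Their correlations in soyNAM parents ran from 0.69 to 0.86, and in milestone cultivars from -0.42 to 0.82 with a median of -0.01. Within elite lines alone, which hold 4 of the 5 libraries that stand apart, their median correlation was 0.76, and within LG lines 0.59. Over the soyNAM parents without the 5 libraries that stand apart their median correlation was 0.59, with a lowest value of 0.54. Of the 50 genes, 14 then remained among the highest 50. All these libraries are among those over which the genes were chosen, so high values there follow at least in part from the choice. Of 49 of these genes tested between the collections, limma called 12 as higher in soyNAM parents and 20 as lower. Their median log2 difference was -0.07. The share called lower, 40.8%, was near the 37.8% of all genes, and 24.5% were called higher, where 11132 of all 30101 genes were.

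**Figure D5:**
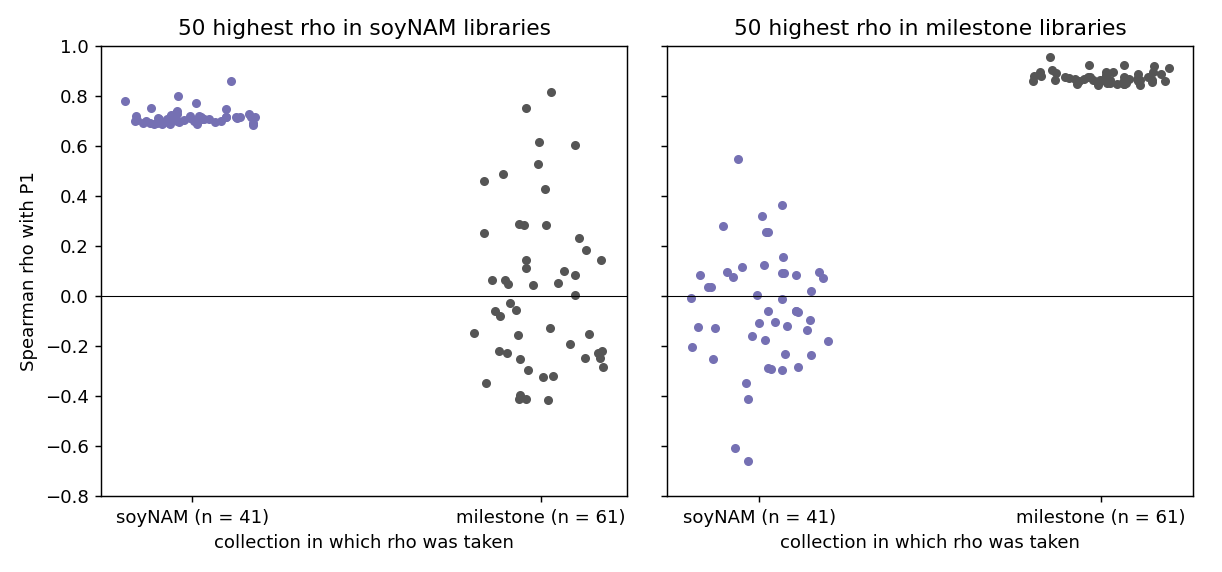
Spearman correlation with P1 over the 41 soyNAM and the 61 milestone libraries for the 50 genes highest in soyNAM parents (left) and the 50 highest in milestone cultivars (right), with 1 point per gene. Each set lies high in the collection it was chosen in, by that choice, and scatters about 0 in the other, with medians of -0.01 on the left and -0.06 on the right.

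A few genes followed P1 in both collections. Over 27563 genes at a mean of 1 FPKM in each, 7 reached 0.6 in both and 31 reached 0.5. Glyma.18G210900 was at 0.74 in soyNAM parents and 0.75 in milestone cultivars, and at 0.62 in soyNAM parents without the 5 libraries that stand apart. It had 920.2 FPKM in NAM37 and 356 in NAM50, against 3.10 in Parent and 3.53 in NAM10, so that NAM37 exceeded every milestone library, the highest of which had 739.6 FPKM. In milestone library 18 it was at 75.9 FPKM, the lowest of that collection. Glyma.14G051900 was at 0.71 in soyNAM parents and 0.82 in milestone cultivars, with 146 FPKM in NAM37 and 0.0152 in Parent, and it was listed at 0 in NAM06. The pair was picked after its values were seen. The median of Glyma.18G210900 was 114.9 FPKM for soyNAM parents and 306 FPKM for milestone cultivars, and that of Glyma.14G051900 was 25.8 FPKM for soyNAM parents and 71.7 FPKM for milestone cultivars.

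Negative correlations with P1 were weaker in milestone cultivars, and the lowest genes again differed between the collections. In soyNAM parents the lowest correlations were -0.78 for Glyma.15G042000 and -0.76 for Glyma.05G016700, which were at 0.07 and -0.19 in milestone cultivars. Without the 5 libraries that stand apart the soyNAM values of this pair were -0.68 and -0.65. In milestone cultivars the lowest were -0.62 for Glyma.17G047000 and for Glyma.06G106200, which were at 0.15 and 0.12 in soyNAM parents, and at -0.24 and -0.28 there without the 5 libraries that stand apart.

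Among leaf genes with published names, the lowest correlations with P1 in soyNAM parents were those of a pair of flowering genes. The florigen gene FT5a (Glyma.16G044100), which promotes flowering, had a correlation of -0.57, and E2 (Glyma.10G221500), the homologue of the clock gene GIGANTEA, one of -0.55. Only 1.12% and 1.65% of genes lay lower. Leaving out the 5 libraries gave -0.52 for FT5a and -0.39 for E2. PRR3b (Glyma.12G073900), a pseudo-response regulator of the clock, was then as low as FT5a at -0.52, though at -0.12 over all 41 libraries. Over all 41 libraries the flowering and clock genes showed no common direction. The florigen gene FT2a (Glyma.16G150700) was at -0.08, E4 (Glyma.20G090000), a phytochrome A gene, at 0.24 and J (Glyma.04G050200), an ELF3 homologue, at 0.18. Without the 5 libraries FT2a was at -0.28, E4 at -0.11 and LHY2b at -0.29, and J alone stayed above 0, at 0.21. In milestone cultivars FT5a was at 0.34 and E2 at -0.14.

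The storage protein genes VspA (Glyma.07G014500) and VspB (Glyma.08G200100), which hold nitrogen in leaves, were at 0.39 and 0.45 in soyNAM parents, at 0.41 and 0.29 there without the 5 libraries that stand apart, and at 0.17 and 0.11 in milestone cultivars. D2 (Glyma.11G027400), a chlorophyll breakdown gene, was at -0.43 in soyNAM parents, or -0.39 without the 5, and at -0.09 in milestone cultivars. The seed coat colour gene G (Glyma.01G198500) had the lowest value of the named genes in milestone cultivars, at -0.40. In soyNAM parents G was at 0.11, and its sign turned to -0.30 without the 5 libraries. Of the flavonoid genes in milestone cultivars, the chalcone synthase genes CHS1 (Glyma.08G109400) and CHS8 (Glyma.11G011500) were at -0.11 and 0.25, while IFS1 (Glyma.07G202300), for isoflavone synthase, was at -0.02. None of these correlations was tested.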

How the data were processed

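Per the labels' protocols, RNA was extracted with TRIzol and libraries were made with a stranded TruSeq kit at reduced volumes. Per the submitters' processing notes, Trimmomatic 0.32, STAR 2.4.1c and Cufflinks 2.2.1 were used. The genome build, the annotation and the strand setting are not given in the sources used here, apart from the suffix Wm82.a2.v1 on the IDs, so reads of overlapping genes and of near-identical copies cannot be told apart. The authors deposited FPKM per gene in a single table, all of whose 102 columns were used, and 0 of its IDs matched the reference table of names. Columns were assigned to groups by their names, numbered columns to milestone cultivars.

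limma 3.58.1 (R 4.3.3) was run on log2(FPKM + 1) (moderated statistics with a mean trend, 2-sided, Benjamini-Hochberg adjustment over the 30101 genes averaging 1 FPKM or more, threshold 0.05). A fold on this scale understates the change of low genes. The collections were compared as 2 groups, and the soyNAM classes in a model of 4 classes over all libraries. Likeness was Spearman's correlation within a collection over genes averaging 1 FPKM or more there, computed in Python 3.11.15, without p-values. The functions were tested on simulated data. P1, the gene lists and the comparisons were chosen with earlier results of these data known. The text names the 2 highest and 2 lowest correlates per collection, all pubescence loci and the nearest measured neighbours. Other genes singled out, as the extremes of a set or as the lowest of the named leaf genes, were picked after their values were seen. A planned list of lipid transfer protein genes was not analysed here, because no product names were at hand.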

Additional observations from a re-analysis of the deposited data

Results flagged for a closer look

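In the 8 PI lines, the highest and the lowest library of a gene were compared with the next one by Dixon's test. Of the 17 genes checked in this way, P1 and its measured neighbours and the pubescence loci, 1 had a library past the 95% limit, and chance gives about 1 such group in 20. The neighbour Glyma.09G277200 reached 11.03 FPKM in 1 PI line, against 6.14 FPKM in the next and a median of 4.79 FPKM.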

How the results depend on the processing

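The P1 log2 differences, which compare means, kept their direction under a pseudocount of 0.1 FPKM and both other scalings. They also kept it without the 5 libraries that stand apart, with or without NAM29 and NAM48. They ran from -5.74 to -5.08 for soyNAM minus milestone, 1.06 to 1.90 for PI minus elite and 0.16 to 0.63 for LG minus elite. The order of the LG and elite medians did turn without the 5 libraries. The counts of calls among neighbours and pubescence loci stayed within 1.5 times under every alternative run. Over all genes, calls between the collections numbered 12573 with a filter at a mean of 5 FPKM, against 22508, since fewer genes were tested. For PI against elite lines they numbered 3484 without the 5 libraries and 669 in the rank-sum test, against 1037. For LG against elite lines they numbered 4 with the smaller pseudocount, 4 with median-of-ratios scaling, 3 with quantile normalization, 101 without the 5 libraries, 14 with no filter and 1 in the rank-sum test, against 8. The cause was not tested. Without the 5 libraries, LG minus elite turned to -0.24 for Ps and 0.012 for Pd1, neither of them called, and the median correlation of the 50 milestone genes in soyNAM parents turned to 0.016. Of the 50 soyNAM genes, 23 remained with Pearson's r, 14 without the 5 libraries and 27 with values centred on the class. Of the 50 milestone genes, 8 remained when genes had to reach a mean of 1 FPKM in both collections, a setting chosen after seeing the data, as was leaving out NAM37, milestone library 47, or NAM29 and NAM48. No soyNAM library was outlying in P1 over the whole collection, so that setting gave no value there. No paired analysis was possible because each accession had 1 library and the labels give no replicate numbers. The unknown read depth limits what can be said of genes listed at or near 0.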
